A study of Rattus norvegicus with 12 samples.

Results

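The course of gene expression between day 2 and day 7 after kidney injury was followed in rats treated against the microRNA miR-182. The 3 arrays titled anti-miR-182 at day 7 were compared with the 3 titled anti-miR-182 at day 2, 6 of the 12 arrays in the series, over all 18166 genes with one annotated symbol. Every array held total RNA of kidney tissue from a different rat after ischemia-reperfusion injury (IRI), a temporary stop of renal blood flow. The other 6 arrays came from rats given a placebo, 3 at day 2 and 3 at day 7 after the same injury. All 4 groups carry the injury, and no uninjured kidney was analysed here, so a value says where day 7 stood against day 2 and not against a healthy kidney. The sources used here do not give strain, sex, age, or the dose and timing of inhibitor and placebo. The titles name day 2 or day 7, while the description of every array speaks of a zero-hour biopsy; groups were taken from the titles. As the samples were pieces of whole tissue, fewer cells of a type and less RNA per cell cannot be told apart in any value.

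After ischemia, tubule cells of the kidney are damaged or lost, and surviving cells lose specialised functions, divide and cover the denuded tubule. White blood cells enter the tissue and fibroblasts lay down matrix in the days that follow. A microRNA is a short RNA that pairs through its seed, the bases 2 to 8 from its 5′ end, with messenger RNAs and lowers their output. An anti-miR is a chemically modified strand that binds one microRNA and blocks this pairing. The target of the inhibitor is shown here with the other miRNAs of its cluster, from RefSeq (GRCr8, all on the minus strand of chromosome 4). Sequences run 5′ to 3′ and the seed is in capitals.
rno-miR-182, chr4:59752249-59752273: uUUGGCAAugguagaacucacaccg
rno-miR-96-5p, chr4:59755901-59755923: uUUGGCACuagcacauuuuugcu
rno-miR-183-5p, chr4:59756106-59756127: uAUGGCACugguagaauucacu
The array row named Mir182 is annotated to this gene, and which RNA gave its signal was not tested. It does not report how much mature miR-182 was blocked. Under anti-miR-182 its log2 signals were 6.28, 6.06 and 6.58 on day 2 and 5.70, 6.03 and 5.04 on day 7. The days lay apart by as little as 6.06 against 6.03, and the difference of -0.72 (SE 0.23) just passed (adjusted p = 0.0476). It did not pass when any one of 5 of the 6 arrays was left out, with differences from -0.84 to -0.44; without day 7 replicate 2 it passed. Nor did it pass under median centring (-0.69). In the placebo group the row lay between 4.51 and 4.79 on day 2 and between 4.10 and 4.74 on day 7, below all 6 anti-miR-182 arrays. The rows of the neighbouring genes were looked at after the values were seen. That of Mir183 fell by 0.72 (SE 0.12, adjusted p = 0.00212) and that of Mir96 differed by 0.06 (SE 0.18, adjusted p = 0.866), with the sign turned in the values as deposited (-0.10).

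Values are log2 signals, so a difference of 1 is a doubling. Deposited values of the day 7 arrays lay lower than those of day 2 across the board, with a median difference of -0.21 over all genes. On day 2, 190 rows held no value. The labels do not say whether each day was normalized in a run of its own, so day and any normalization by day cannot be told apart. All differences below were taken after the 12 arrays had been brought to one distribution by quantile normalization, which set the median difference to 0.00, and they are relative to that. A single fit in limma supplied the differences, their standard errors (SE) and p-values adjusted over all 18166 genes by the Benjamini-Hochberg method, and a gene passed with an adjusted p under 0.05. The days lay on opposite sides of the first principal component (45.3% of the variance). On the second (11.1%), day 2 replicate 3 of the anti-miR-182 group lay apart at -25.99, against 15.05 for replicate 1 and 0.03 for replicate 2 of that group. The median SD of a gene was 0.163 in the anti-miR-182 group on day 2 and 0.134 on day 7. Umod, which encodes the kidney protein uromodulin of the thick ascending limb, lay between 11.35 and 11.75 on these 6 arrays; since levels of different genes cannot be ranked on these arrays, it does not test the tissue label. The titles number the rats, and the number (above or below 90) was used as a covariate in an alternative fit. All 6 rats of day 2 were above 90 and 4 of the 6 of day 7 below it, 2 of them under anti-miR-182. Number and day are therefore told apart only by the day 7 rats above 90, replicate 3 of anti-miR-182 and replicate 1 of placebo, and the labels do not say that the number marks a batch. P-values measure the spread among these rats, and precision is limited by how few arrays there are.

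Of the 18166 genes, 2695 (14.8%) passed: 1311 (7.22%) were higher on day 7 and 1384 (7.62%) lower. Counts within the lists below are to be read beside these shares. Most shifts were small, as the median size among genes that passed was 0.552, and 94 rises and 134 falls reached a log2 difference of 1. The arrays of the days did not overlap for 5764 genes (31.7%). Among the 2695 genes that passed they did not overlap for 2640, so separate days add little to a call. The largest falls were those of Klk1c10, Fam111a, Pmch, Akr1b8, Ccnb1, Rbp4, Cdk1, Cdca2, Klk1b3 and Pbk, among which Ccnb1, Cdk1, Cdca2 and Pbk serve cell division. The largest rises were those of A2m, Il19, Il24, Cxcl13, Lcn2, C3, Clec4e, Postn, Ms4a4a and Hpgd, most of them secreted proteins of inflammation and wound repair. The count was 1701 without day 2 replicate 2, 1730 without day 7 replicate 1 and 1615 without day 7 replicate 3. It was 1424 with the animal number as covariate. The split between rises and falls depends on the scaling: the values as deposited gave 487 rises and 4515 falls.

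**Figure D1:**
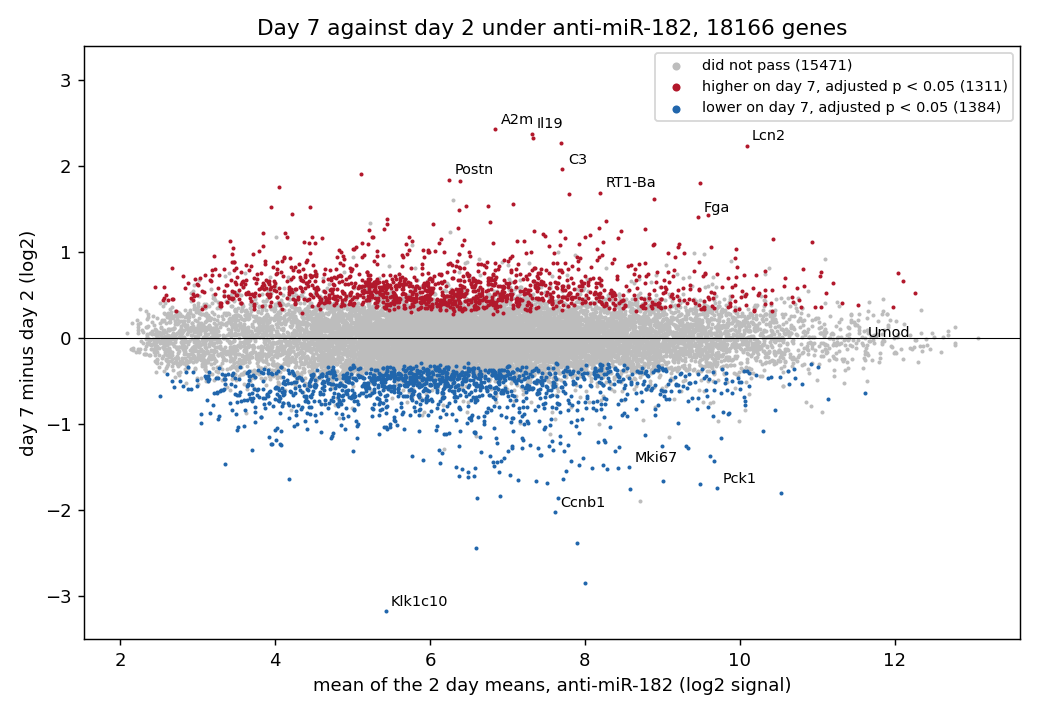
Difference between day 7 and day 2 (log2, vertical) against the mean of both day means (log2 signal, horizontal) for all 18166 genes on the anti-miR-182 arrays. Red points are the 1311 genes that were higher on day 7, blue points the 1384 that were lower; Klk1c10 lies lowest at -3.17 and A2m highest at 2.43.

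The cell division programme fell most uniformly. Of 36 measured genes of mitosis and the spindle, 32 fell and 0 rose, with a median difference of -1.24 against 0.00 for all genes. Ccnb1 encodes cyclin B1, the partner that activates the mitotic kinase Cdk1. Its signals were 8.72, 8.76 and 8.37 on day 2 and 6.43, 6.45 and 6.91 on day 7, with no overlap between days. This is a 4.05-fold lower level (-2.02, SE 0.18, adjusted p = 0.000106). The kinase gene itself, Cdk1, went from 8.71, 8.81 and 8.21 to 6.23, 7.03 and 6.91 (-1.85, SE 0.24, adjusted p = 0.000555). Both days were again apart on every array. Further falls were those of Cdca2, which recruits a phosphatase to chromosomes (-1.83, SE 0.19), Pbk, a mitotic kinase (-1.75, SE 0.24), and Kif23, a motor protein of cytokinesis (-1.68, SE 0.17). Mki67, the common marker of proliferating cells, fell by 1.5 (SE 0.20, adjusted p = 0.000555), Cenpf by 1.51 (SE 0.16) and Ttk, a spindle checkpoint kinase, by 1.59 (SE 0.20). The mean of the list lay at 8.04, 8.33 and 7.79 on day 2 and at 6.66, 6.93 and 7.0 on day 7. Between 26 and 32 members fell when 1 of the 6 arrays was left out.

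Genes of DNA replication fell less far. Of 27 measured, 16 fell and 0 rose, with a median of -0.56. Among them Rrm2, the regulated subunit of the enzyme that makes deoxynucleotides, went from 10.49, 10.83 and 9.84 to 9.11, 8.47 and 9.29 (-1.43, SE 0.32, adjusted p = 0.0105). Mcm6 and Mcm4, subunits of the replicative helicase, fell by 1.27 (SE 0.19) and 1.26 (SE 0.18). Pcna, the sliding clamp of DNA polymerase, fell by 0.87 (SE 0.15) and Tyms, thymidylate synthase, by 0.83 (SE 0.10). Of the 15 inhibitors of cyclin-dependent kinases and p53-linked genes, 2 fell and 0 rose. Cdkn2b, the inhibitor p15, fell by 0.62 (SE 0.10), and Ei24 was the other. The call of Ei24 was lost without day 2 replicate 1, 2 or 3 or day 7 replicate 2 or 3 (-0.39 to -0.50). Ei24 also did not pass with the 6 anti-miR-182 arrays alone (-0.45) or with the animal number as covariate (-0.45). The p53-induced inhibitor Cdkn1a lay at 6.95, 6.81 and 6.65 on day 2 and at 6.80, 7.05 and 6.77 on day 7, which overlap (0.07, SE 0.11, adjusted p = 0.71). The sign of Cdkn1a turned in the values as deposited (-0.11).

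Promoters of mitotic genes are known to carry a cell cycle homology region (CHR), bound by the DREAM and MuvB complexes, and CCAAT boxes bound by NF-Y. Since these genes moved together, promoters of 4 of them, chosen after their values were seen, are printed from RefSeq (GRCr8). Each is the 150 bases before the annotated start, on the gene's strand, with matches to TTTGAA or TTCGAA (CHR) and to CCAAT, on either strand, in capitals.
Ccnb1, chr2:33655226-33655375, minus strand: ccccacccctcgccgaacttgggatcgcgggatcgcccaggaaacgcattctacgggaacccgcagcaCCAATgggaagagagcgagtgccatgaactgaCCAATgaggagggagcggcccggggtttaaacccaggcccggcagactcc
Cdk1, chr20:19265143-19265292, plus strand: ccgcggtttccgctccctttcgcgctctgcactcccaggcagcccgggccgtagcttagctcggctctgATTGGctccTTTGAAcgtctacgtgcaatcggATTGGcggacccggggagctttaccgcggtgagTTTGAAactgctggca
Kif23, chr8:71320585-71320734, minus strand: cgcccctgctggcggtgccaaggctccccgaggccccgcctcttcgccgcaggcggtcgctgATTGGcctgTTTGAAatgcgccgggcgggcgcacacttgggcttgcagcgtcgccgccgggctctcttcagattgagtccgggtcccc
Ccnb2, chr8:79981659-79981808, minus strand: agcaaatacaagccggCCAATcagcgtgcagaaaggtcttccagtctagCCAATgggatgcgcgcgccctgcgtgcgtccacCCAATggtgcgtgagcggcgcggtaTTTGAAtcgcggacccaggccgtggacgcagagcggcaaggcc
In Cdk1, Kif23 and Ccnb2 both kinds of match were present, and in the stretch of Ccnb1 shown here the CCAAT box was. Over windows of 250 bases before the start, CHR letters were in 13 of 29 mitosis promoters held in the table (44.8%), against 15.8% of the 14564 promoters of genes tested. CCAAT was in 22 of the 29 (75.9%, against 35.2%), and both were in 12 (41.4%, against 5.8%). Of 21 replication promoters, 3 held the CHR letters (14.3%) and 13 held CCAAT (61.9%). A match describes the sequence and is neither a site shown to be bound nor a cause of the fall.

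**Figure D2:**
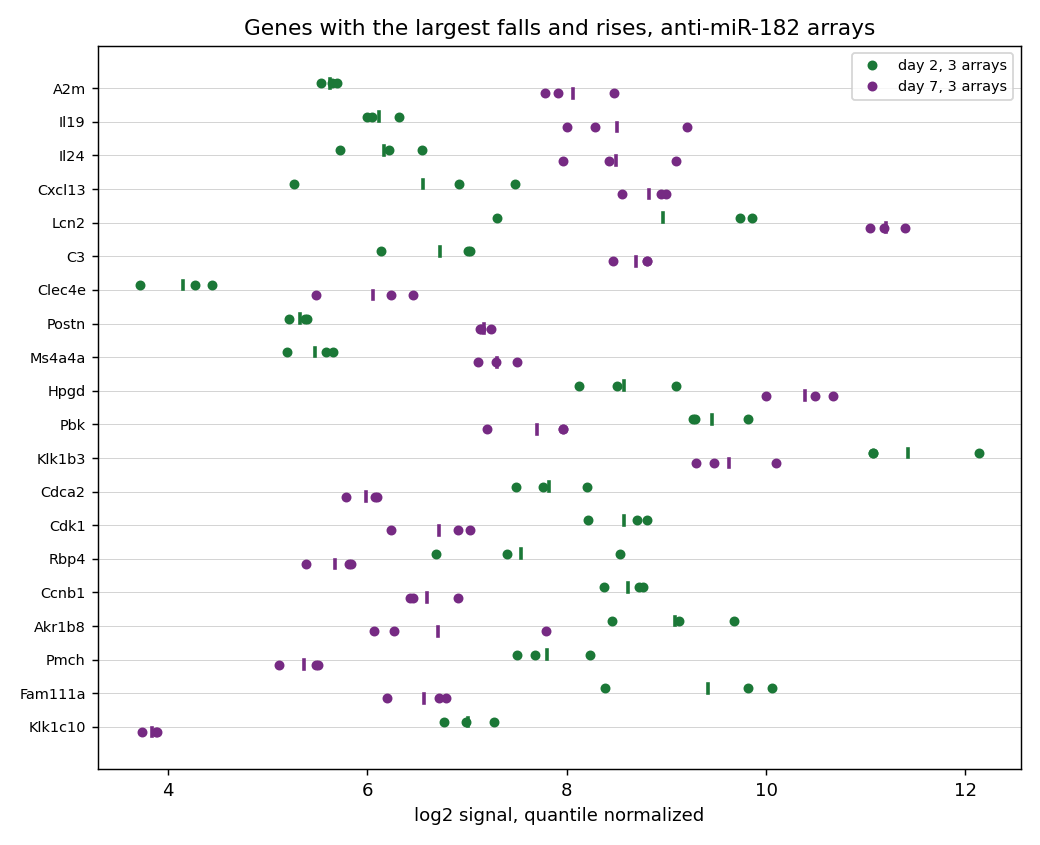
Log2 signals (horizontal) of the genes with the 10 largest falls and 10 largest rises (vertical), on the 3 anti-miR-182 arrays of day 2 (green) and of day 7 (purple), with a short bar at each mean. The days are apart in all 20 genes, which were chosen for the size of their difference, as they are in most genes that passed. Lcn2 has 1 day 2 array, at 7.30, far below the others of that day.

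Some kallikreins and some genes of the distal nephron fell. Klk1c10, a member of the rat tissue kallikrein family of serine proteases, went from 7.28, 6.77 and 7.0 to 3.90, 3.74 and 3.88. The days were separated by far more than the spread within them, a 9.03-fold lower level (-3.17, SE 0.38, adjusted p = 0.000353). Its day 7 signals were dim, below 5.47, the lower quartile of the gene means. The array has another, dimmer row for Klk1c10, which differed by -0.05 in the values as deposited, or 0.16 relative to the median of all genes. With the mean of both rows the difference was -1.52 (adjusted p = 0.000555). Of 18 kallikrein genes measured, 8 fell and 2 rose, with a median of -0.36. Klk1b3 went from 12.13, 11.07 and 11.07 to 10.10, 9.48 and 9.30 (-1.80, SE 0.38, adjusted p = 0.00866). Klk1 itself, the kallikrein that releases kinins from kininogen and is made in the connecting tubule, fell by 1.69 (SE 0.42, adjusted p = 0.0178). Klk1c3 fell by 1.30 (SE 0.24), whereas Klk1c2 rose by 0.71 (SE 0.14). These genes are near-copies of each other, so signal may be split or shared between their rows. Without day 2 replicate 1, day 7 replicate 2 or day 7 replicate 3, Klk1 did not pass (-1.31, -1.58 and -1.52). With the animal number as covariate Klk1b3 differed by -1.52 (adjusted p = 0.0655) and Klk1 by -1.41 (adjusted p = 0.11), and 3 kallikreins fell and 2 rose.

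Of 14 genes of the distal convoluted and connecting tubule, 2 fell, Klk1 and Kl, and 0 rose. Kl encodes klotho, the co-receptor for the phosphate hormone FGF23, and differed by -0.52 (SE 0.15, adjusted p = 0.0328), a call lost without any of 4 arrays (day 2 replicates 1 and 2, day 7 replicates 2 and 3; -0.36 to -0.52) and with the animal number as covariate (-0.61, adjusted p = 0.0598). In the collecting duct list, 4 of 22 fell and 1 rose, with a median of -0.38. The 4 were genes of acid- and base-secreting intercalated cells: the proton pump subunits Atp6v0d2 (-0.77, SE 0.16), Atp6v1b1 (-0.75, SE 0.17) and Atp6v0a4 (-0.53, SE 0.13), and the bicarbonate exchanger Slc26a4 (-0.90, SE 0.25). Atp6v0a4 did not pass without day 7 replicate 2 (-0.46) or 3 (-0.47), and with the animal number as covariate Atp6v0d2 (-0.65), Atp6v1b1 (-0.74) and Atp6v0a4 (-0.50) did not pass. The call of Slc26a4 was lost without day 2 replicate 1 (-0.62) and without day 7 replicate 3 (-0.72). Car2, the cytosolic carbonic anhydrase, rose by 0.42, a call lost without day 2 replicate 2 (0.41) or day 7 replicate 3 (0.37) and under median centring (0.29). Of 14 loop of Henle genes, Egf alone passed, a share of 7.14% lower against 7.62% of all genes. Egf encodes epidermal growth factor, made by the thick ascending limb and distal tubule, and went from 10.22, 10.13 and 10.66 to 9.45, 8.80 and 9.28 (-1.16, SE 0.36, adjusted p = 0.0441). That call was lost when any one of the 6 arrays was left out, with differences from -1.30 to -0.97, and with the animal number as covariate Egf differed by -0.64 (adjusted p = 0.32). Umod differed by -0.05 (SE 0.14, adjusted p = 0.845), with overlapping days.

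Few proximal tubule genes passed. Of 30 measured, 2 rose (6.67%) and 1 fell (3.33%), with a median of -0.09. The share that rose was near the 7.22% of all genes. The fall was that of Pck1, the rate-limiting enzyme of gluconeogenesis, from 10.53, 10.86 and 10.34 to 9.12, 9.29 and 8.10 (-1.74, SE 0.31, adjusted p = 0.00324). Day 7 replicate 3 was the lowest array and the days did not overlap. Slc5a1, the sodium-glucose cotransporter of the late proximal tubule, went the other way, from 7.16, 7.49 and 7.50 to 8.30, 8.14 and 8.13 (0.81, SE 0.13, adjusted p = 0.00229). The phosphate transporter gene Slc34a1 lay at 10.03, 10.09 and 9.92 on day 2 and at 10.48, 10.22 and 9.42 on day 7 (0.03, SE 0.21, adjusted p = 0.946). Its sign turned under median centring (-0.09).

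Genes of fatty acid oxidation, the main fuel pathway of the proximal tubule, fell in part. Of 28 genes, 9 fell and 0 rose, with a median of -0.33. Ehhadh, a peroxisomal enzyme of the pathway, went from 9.71, 10.22 and 9.87 to 8.74, 9.0 and 8.31, so that all 3 day 7 arrays were below day 2 (-1.25, SE 0.22, adjusted p = 0.00324). Pex11a, a peroxisome division protein, fell by 0.78 (SE 0.14), Cpt2, which hands fatty acids to mitochondrial oxidation, by 0.60 (SE 0.12), and Acox2, a peroxisomal oxidase, by 0.79 (SE 0.14). Without day 2 replicate 3 the list held 4 falls and 1 rise (median -0.23). Ppara, the nuclear receptor that drives many of these genes, passed with a difference of -0.80 (SE 0.22, adjusted p = 0.0294), but its days overlap, since day 2 replicate 1 lay at 6.77 and the highest day 7 array at 6.78. The call of Ppara was lost without day 2 replicate 2 or 3 or day 7 replicate 1 or 3 (-0.83 to -0.63) and with the animal number as covariate (-0.79). Of 27 respiratory chain genes 2 fell (7.41%, against 7.62% of all genes) and 0 rose. Of 19 genes of glycolysis and hypoxia 2 rose. One was Ldha, the lactate dehydrogenase A subunit, from 10.54, 10.51 and 10.07 to 11.39, 11.52 and 11.55 (1.11, SE 0.14, adjusted p = 0.000509), and the other Hk2, a hexokinase (0.50, SE 0.15), which lost its call without any of 5 arrays, all but day 2 replicate 1 (0.44 to 0.55), and with the animal number as covariate (0.48).

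Markers of tubular injury rose in part. Of 30 listed genes, 9 rose and 3 fell, with a median of 0.39. Lcn2 encodes lipocalin-2 (NGAL), an iron-carrier-binding protein that damaged tubules secrete. It went from 9.85, 9.74 and 7.30 to 11.18, 11.04 and 11.40, and day 2 replicate 3 stood far below the other day 2 arrays. The difference was 2.24 (SE 0.53, adjusted p = 0.0149), and it was 1.86 with the animal number as covariate, which did not pass (adjusted p = 0.097). Without day 2 replicate 3 it was 1.41 and passed (adjusted p = 0.0193). Cd44, a hyaluronan receptor of injured epithelium, went from 7.0, 7.34 and 6.66 to 7.79, 8.13 and 8.30 (1.07, SE 0.20, adjusted p = 0.00369) and kept its call whichever array was left out. The keratin gene Krt8 fell by 0.60 (SE 0.14, adjusted p = 0.0126), a call lost without day 7 replicate 3 (-0.51). Havcr1, the kidney injury molecule KIM-1, lay at 10.88, 11.13 and 9.81 on day 2 and at 10.84, 11.17 and 11.46 on day 7. The days overlapped and the difference of 0.55 (SE 0.35, adjusted p = 0.317) did not pass. Clu, the chaperone clusterin, and Spp1, the secreted phosphoprotein osteopontin, also did not pass (0.39, SE 0.42, and 0.46, SE 0.23). In Havcr1, Clu and Spp1 the lowest of the 6 arrays was again day 2 replicate 3. Without it 7 injury genes rose and 2 fell, the median was 0.15, and Clu differed by -0.19. The fit with the animal number gave 2 rises and 2 falls. Among the 9, Fga, Fgb, Lcn2 and Il24 also stand in other lists here.

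Acute phase proteins are released in inflammation, by the liver above all and in part by kidney epithelium. Of 19 listed genes, 8 rose and 1 fell, with a median of 0.35. A2m, a broad protease trap and a major acute phase protein of the rat, went from 5.70, 5.65 and 5.54 to 7.78, 7.92 and 8.48. This was the largest rise, 5.39-fold (2.43, SE 0.26, adjusted p = 0.00021), and the days were far apart. Fga, the fibrinogen alpha chain, went from 8.80, 8.96 and 8.51 to a mean of 10.16 ± 0.19 (SD, n = 3), the highest array at 10.38 and no overlap (1.41, SE 0.22, adjusted p = 0.00159). Fgb, the beta chain, went from 8.28, 8.94 and 7.78 to 9.42, 9.20 and 9.65 (1.09, SE 0.29, adjusted p = 0.0225). The gamma chain gene Fgg, named after its values were seen, had overlapping days (0.88, SE 0.34, adjusted p = 0.0999). The call of Fgb was lost without day 2 replicate 3 (0.81), day 7 replicate 1 (1.09) or day 7 replicate 3 (0.98). Lbp, which presents bacterial lipopolysaccharide to macrophages, rose by 1.21 (SE 0.31, adjusted p = 0.0198), a call lost without day 2 replicate 3 (0.87), day 7 replicate 2 (1.19) or day 7 replicate 3 (1.10). Serpina1, alpha-1-antitrypsin, was the 1 that fell (-0.72, SE 0.15). Between 3 and 7 of the list rose with 1 array left out, and 4 did with the animal number as covariate. There Fgb (0.90), Lbp (0.94) and Serpina1 (-0.54) did not pass.

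Complement genes were split, with 5 of 22 rising and 3 falling. C3, the central component on which the complement pathways converge, went from 7.01, 7.03 and 6.14 to 8.80, 8.47 and 8.80 (1.97, SE 0.44, adjusted p = 0.0114). The lowest value was that of day 2 replicate 3, and the days did not overlap. The difference was 1.33 (adjusted p = 0.101) with the animal number as covariate, and C5 did not pass either (0.71). Serping1, the inhibitor of the first component, rose by 0.73 (SE 0.13), and C5 by 0.76 (SE 0.19); C5 lost its call without day 2 replicate 1 (0.54), day 2 replicate 2 (0.75) or day 7 replicate 3 (0.69). C6, a part of the membrane attack complex, fell by 1.01 (SE 0.23), and Cr2, a complement receptor of B cells, by 0.87 (SE 0.11). Between 2 and 4 of the list rose with 1 array left out.

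**Figure D3:**
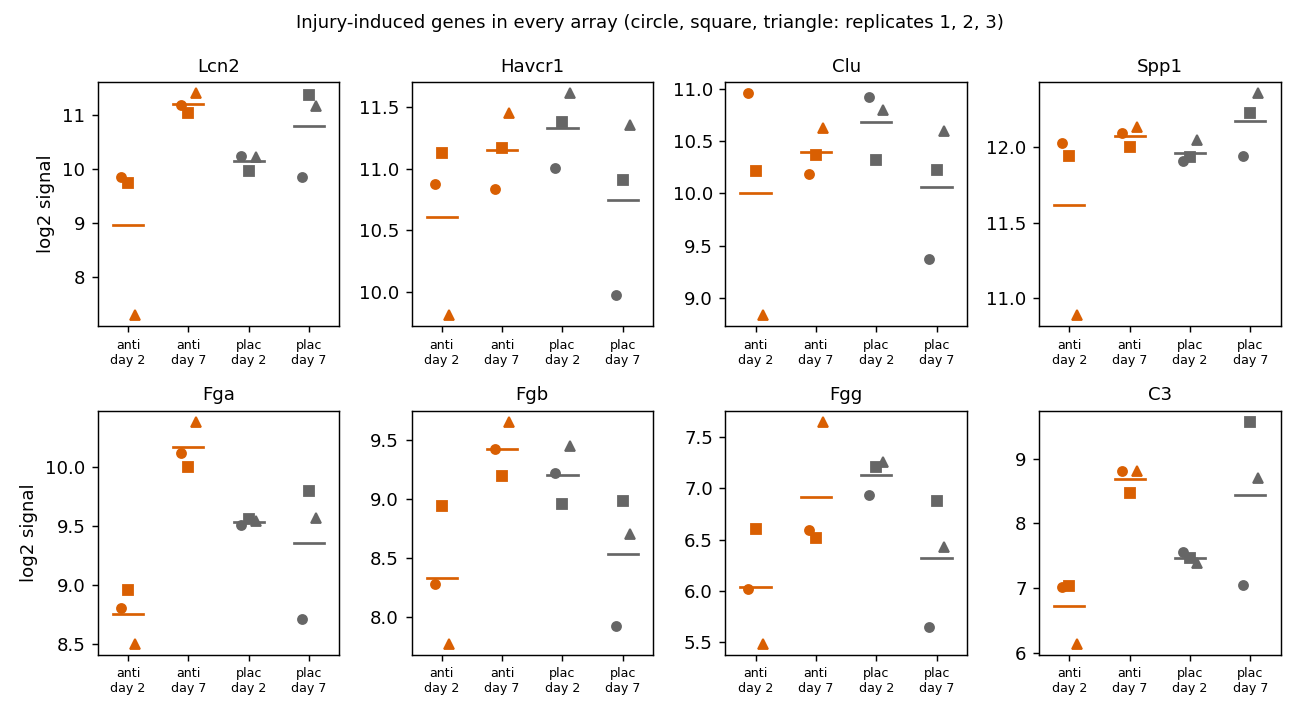
Log2 signals (vertical) of 8 genes induced by injury on all 12 arrays, by treatment and day; circles, squares and triangles are replicates 1, 2 and 3 and bars are means of 3. Day 2 replicate 3 of the anti-miR-182 group (triangle) is low for Lcn2 (7.30), Havcr1 (9.81) and Clu (8.84), while Fga is separated by day under anti-miR-182 and not under placebo.

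Il19 and Il24, cytokine genes of the IL-20 family, were among the largest rises. Il19 went from 6.32, 6.0 and 6.04 to 8.01, 8.29 and 9.20, a 5.20-fold rise with no overlap (2.38, SE 0.36, adjusted p = 0.00134). Il24 went from 6.22, 6.55 and 5.73 to 7.96, 8.43 and 9.10 (2.33, SE 0.49, adjusted p = 0.00819). In both, day 7 replicate 3 was highest, and with the animal number as covariate Il24 differed by 1.97 and did not pass (adjusted p = 0.0621). Il6, a main inducer of the acute phase response, went from 4.05, 3.99 and 3.85 to 5.04, 4.93 and 5.24 (1.11, SE 0.14, adjusted p = 0.000444). All 6 of these signals were dim, below 5.47, the lower quartile of the gene means. Over the list of interleukins and receptors, 5 of 27 rose and 1 fell; Il11 rose by 0.58 (SE 0.14) and lost its call without day 7 replicate 1 (0.53). The sole fall, that of the receptor chain Il20ra (-0.56, SE 0.17, adjusted p = 0.0443), was lost without any of 4 anti-miR-182 arrays and 4 placebo arrays (-0.35 to -0.64). Neither Il11 (0.49) nor Il20ra (-0.68) passed with the animal number as covariate.

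Of 27 chemokines, which guide white blood cells into tissue, 6 rose and 2 fell, and between 1 and 3 rose when 1 array was left out. In the fit with the animal number 0 chemokines rose and 1 fell: there Ccl6 differed by 0.90 (adjusted p = 0.053) and Cxcl13 by 2.57 (adjusted p = 0.0591). Cxcl13, which draws B cells, went from 5.26, 6.92 and 7.48 to 8.94, 8.55 and 8.99. Day 2 replicate 1 was lowest, and the difference of 2.27 (SE 0.62, adjusted p = 0.0261) lost its call without any of 5 arrays, all but day 2 replicate 3 (1.63 to 2.45). Ccl6, a myeloid chemokine, rose by 1.09 (SE 0.22, adjusted p = 0.00609). Cxcl11, an interferon-induced ligand of CXCR3, went the other way, from 7.99, 8.22 and 8.32 to 6.80, 7.08 and 7.06 (-1.20, SE 0.16, adjusted p = 0.000681), and kept its call whichever array was left out. Ccl2, the main attractant of monocytes, differed by 0.45 (SE 0.25, adjusted p = 0.235). Its receptor gene Ccr2 rose by 1.24 (SE 0.36, adjusted p = 0.0351), a call lost without any of 5 arrays, all but day 2 replicate 1 (0.96 to 1.30), and with the animal number as covariate (0.81, adjusted p = 0.243). Of 27 genes of the interferon response, 3 rose and 0 fell: Irf7 (0.49), Isg15 (0.68) and Irf1 (0.49). All lost their calls in several single-array removals, and between 0 and 3 rose with 1 array left out. In the fit with the animal number 1 rose, and Irf7 (0.56) and Irf1 (0.32) did not pass.

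Macrophage genes rose in part. Of 28, 8 rose and 1 fell, with a median of 0.41. The mean of the list lay at 7.41, 7.25 and 7.22 on day 2 and at 7.61, 7.58 and 7.62 on day 7. Folr2, a folate receptor of tissue-resident macrophages, went from 6.51, 6.81 and 6.90 to 7.77, 7.63 and 7.80 (0.99, SE 0.18, adjusted p = 0.0034). Mrc1, the mannose receptor CD206, went from 6.40, 6.64 and 6.63 to 7.48, 7.82 and 7.75 (1.13, SE 0.28, adjusted p = 0.0175), and its call was lost without day 7 replicate 2 (1.06) or 3 (1.10) and with the animal number as covariate (0.75, adjusted p = 0.145). Arg1, arginase-1, was the 1 that fell (-0.63, SE 0.13, adjusted p = 0.00629), and the lysosomal marker Cd68 differed by 0.46 (SE 0.30, adjusted p = 0.323). Outside the list, Clec4e, a myeloid receptor of dead cells and mycobacterial lipid, went from 3.73, 4.27 and 4.45 to 5.49, 6.24 and 6.46 (1.91, SE 0.26, adjusted p = 0.000681). Ms4a4a, a membrane protein of macrophages, went from 5.58, 5.66 and 5.19 to 7.12, 7.29 and 7.50 (1.83, SE 0.44, adjusted p = 0.0154), a call lost without day 2 replicate 3 (1.68) or day 7 replicate 3 (1.73) and with the animal number as covariate (1.40, adjusted p = 0.112). Between 3 and 8 of the macrophage genes rose when 1 array was left out, and 1 rose and 3 fell with the animal number as covariate.

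Of 15 genes of MHC class II and dendritic cells, which present antigen to T helper cells, 6 rose and 0 fell, with a median of 0.56. RT1-Ba, a rat class II alpha chain, went from 7.23, 6.87 and 7.95 to 8.80, 9.62 and 8.71 (1.69, SE 0.37, adjusted p = 0.0103). RT1-Da, another alpha chain, went from 9.20, 8.27 and 9.13 to 10.35, 10.21 and 10.34 (1.43, SE 0.27, adjusted p = 0.00447). The days did not overlap in either gene, and the call of RT1-Da held whichever array was left out. Cd74, the invariant chain that chaperones class II, differed by 0.70 (SE 0.20, adjusted p = 0.0343), a call lost without any of 5 arrays, all but day 2 replicate 1 (0.57 to 0.72), and under median centring (0.57). With the animal number as covariate 1 class II gene passed, RT1-Ba was at 1.14 (adjusted p = 0.0907) and Cd74 at 0.44 (adjusted p = 0.249). Between 2 and 6 rose when 1 array was left out. Class II promoters are known for a Y box, a CCAAT motif in inverted form. It is shown in capitals (CTGATTGG, either strand) in the 150 bases before the start of both alpha chain genes, from RefSeq (GRCr8), also chosen after their values were seen.
RT1-Da, chr20:4515265-4515414, plus strand: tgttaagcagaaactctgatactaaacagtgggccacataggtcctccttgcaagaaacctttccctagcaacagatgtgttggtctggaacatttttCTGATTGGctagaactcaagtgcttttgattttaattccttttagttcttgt
RT1-Ba, chr20:4576907-4577056, plus strand: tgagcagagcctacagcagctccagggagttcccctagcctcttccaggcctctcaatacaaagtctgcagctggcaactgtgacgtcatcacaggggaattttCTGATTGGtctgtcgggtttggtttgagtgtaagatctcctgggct
The letters were in 4 of 12 promoters of the list (33.3%) against 4.02% of promoters of genes tested. They contain the inverted CCAAT box and were also in 10 of the 29 mitosis promoters (34.5%), whose genes fell.

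Of 18 T cell genes 3 rose and 0 fell, with a median of 0.05. Cd2, an adhesion receptor of T cells, went from 4.96, 4.63 and 4.42 to 5.83, 5.87 and 5.84 (1.18, SE 0.23, adjusted p = 0.00474) and kept its call whichever array was left out. Cd3g, a chain of the T cell receptor complex, differed by 1.32 (SE 0.41, adjusted p = 0.043), a call lost without any of 5 of the anti-miR-182 arrays, all but day 2 replicate 1 (1.14 to 1.41). With the animal number as covariate Cd3g differed by 0.71 (adjusted p = 0.32), and 1 T cell gene rose and 1 fell. Among 15 neutrophil genes 4 rose and 4 fell, and 1 of the 4 rises was Lcn2, which injured tubules also make. Of 12 B cell and plasma cell genes 1 rose and 2 fell.

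Matrix genes rose in part. Of 31 fibrous collagens, crosslinkers and glycoproteins, 11 rose and 0 fell, with a median of 0.43. Postn, periostin, a matrix protein made by activated fibroblasts and injured tubules, went from 5.40, 5.37 and 5.22 to 7.13, 7.24 and 7.14. The days were separated by many times their own spread (1.84, SE 0.55, adjusted p = 0.0387). Placebo arrays, which share the estimate of spread, ran from 7.14 to 10.47 on day 7. The call was lost when any one of the 6 anti-miR-182 arrays was left out, at 1.79 to 1.88, and with the animal number as covariate the difference was 0.98 (adjusted p = 0.302). Lox, the enzyme that crosslinks collagen, went from 6.69, 6.75 and 6.49 to 7.38, 7.85 and 8.10 (1.13, SE 0.24, adjusted p = 0.00766). Col8a1, a short-chain collagen of vessel walls, rose by 1.03 (SE 0.14, adjusted p = 0.000742) and Vcan, the proteoglycan versican, by 0.87 (SE 0.16, adjusted p = 0.00379). Col1a1, the chain of the main fibrous collagen, lay at 7.13, 6.87 and 6.66 on day 2 and at 6.96, 6.71 and 6.92 on day 7 (-0.02, SE 0.17, adjusted p = 0.945). Without day 2 replicate 3 6 matrix genes rose and 0 fell, and the count was also 6 with the animal number as covariate. Of 17 myofibroblast and smooth muscle genes 3 rose: Tpm1, a tropomyosin (1.18, SE 0.20), and the growth factors Tgfb2 (0.72, SE 0.20) and Tgfb1 (0.47, SE 0.13). Tgfb1 did not pass without day 2 replicate 2 or 3 or day 7 replicate 2 or 3 (0.38 to 0.50). The call of Tgfb2 was lost without day 2 replicate 1 or 3 or day 7 replicate 2 or 3 (0.54 to 0.78). Neither Tgfb1 (0.31) nor Tgfb2 (0.76) passed with the animal number as covariate.

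Among 23 proteases of the matrix and their inhibitors, 5 rose and 5 fell. Mmp13, a collagenase, rose by 0.78 (SE 0.10, adjusted p = 0.000509) and Mmp10, a stromelysin, fell by 0.73 (SE 0.10, adjusted p = 0.000555), both whichever array was left out. Mmp12, the macrophage elastase, went from 7.63, 8.19 and 8.07 to 6.34, 6.43 and 6.17 (-1.65, SE 0.49, adjusted p = 0.0366). Its days were far apart, yet the call was lost without any of 5 arrays, all but day 2 replicate 1 (-1.71 to -1.54).

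**Figure D4:**
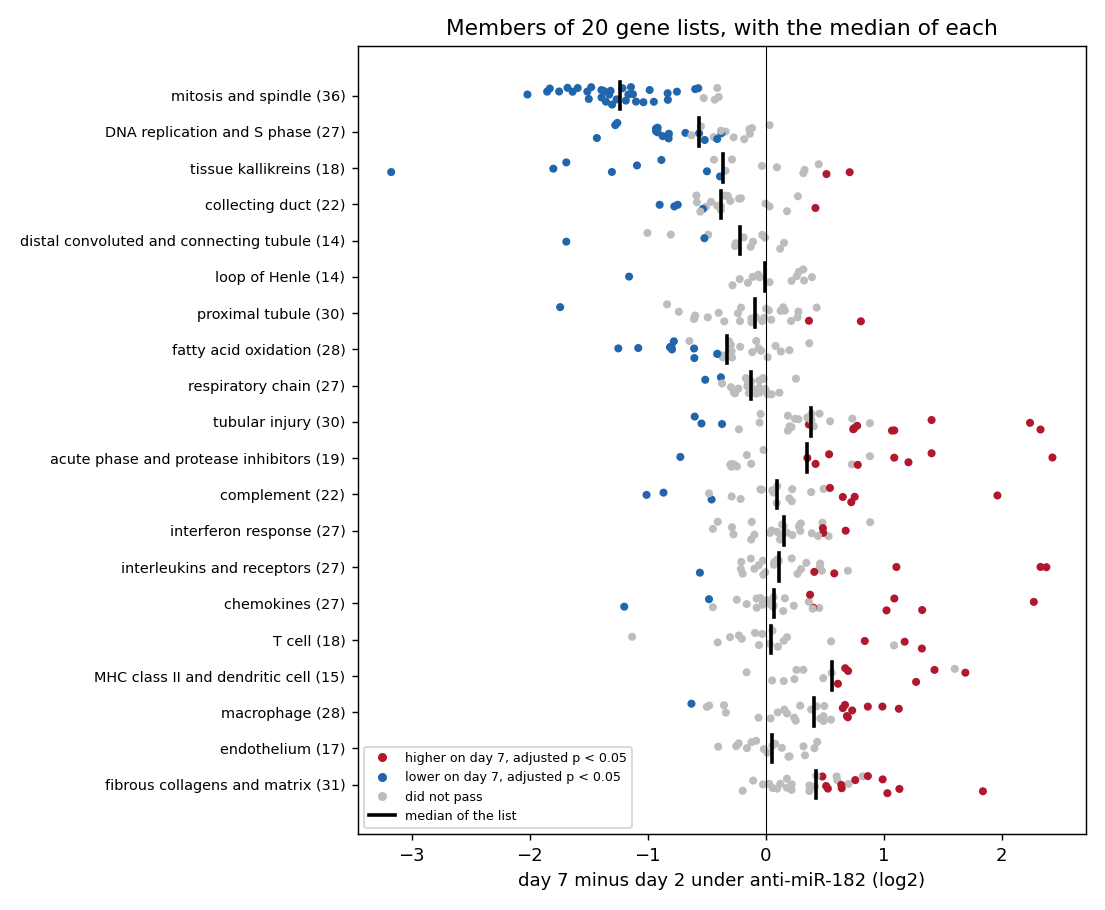
Difference between day 7 and day 2 under anti-miR-182 (log2, horizontal) of every measured member of 20 gene lists, with the number of members in brackets. Red points rose, blue points fell, grey points did not pass and black bars are medians, from -1.24 for mitosis and spindle to 0.56 for MHC class II and dendritic cell.

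The remaining genes among the largest changes have varied roles. Fam111a, a protease that acts at DNA replication, went from 8.38, 10.06 and 9.82 to 6.2, 6.72 and 6.79 (-2.85, SE 0.62, adjusted p = 0.00936). Pmch, the precursor of melanin-concentrating hormone, went from 7.50, 8.24 and 7.68 to 5.12, 5.49 and 5.51 (-2.44, SE 0.21, adjusted p = 0.000106). Akr1b8, an aldo-keto reductase, went from 8.46, 9.12 and 9.68 to 6.07, 6.27 and 7.79 (-2.38, SE 0.57, adjusted p = 0.0155). All of them were apart by day, and the call of Akr1b8 was lost without day 2 replicate 3 (-2.08), day 7 replicate 1 (-2.06) or day 7 replicate 2 (-2.15). Rbp4, the retinol carrier of plasma, fell by 1.86 (SE 0.39, adjusted p = 0.00774). Hpgd, which inactivates prostaglandins, went from 9.10, 8.13 and 8.51 to 10.50, 9.99 and 10.67 (1.81, SE 0.21, adjusted p = 0.000339). With the animal number as covariate Fam111a was at -2.01 (adjusted p = 0.0823), Akr1b8 at -1.71 (adjusted p = 0.121) and Rbp4 at -1.41 (adjusted p = 0.069), and none of these passed. In the list of perirenal fat, 3 of 12 genes were higher and 1 lower. Fabp4, a fatty acid carrier of fat cells, macrophages and capillaries, rose by 1.62 (SE 0.30, adjusted p = 0.00376). Adipoq, the defining fat hormone, picked after its value was seen, differed by 0.09 (SE 0.15, adjusted p = 0.734), and by -0.09 in the values as deposited. The fat genes Plin1 (0.22, adjusted p = 0.29) and Lep (0.39, adjusted p = 0.213) did not pass either, and their days overlapped. The mean of the fat list lay between 6.27 and 6.35 on day 2 and between 6.55 and 6.70 on day 7. Its part in other results was not tested.

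Genes reported as targets of miR-182, with the FOXO factors, numbered 4 rises and 2 falls of 23, with a median of -0.07. Foxo3, a transcription factor of stress resistance, went from 7.87, 7.66 and 7.37 to 8.11, 8.09 and 8.14. The days did not overlap (0.48, SE 0.12, adjusted p = 0.018), and the call was lost without day 2 replicate 3 (0.35) or day 7 replicate 3 (0.46) and in the values as deposited (0.26). Foxo3 also did not pass in the limma fit on the 6 anti-miR-182 arrays alone (0.48, adjusted p = 0.0627). Foxo1 lay at 8.12, 7.92 and 7.68 on day 2 and at 7.98, 8.03 and 7.99 on day 7 (0.09, SE 0.12, adjusted p = 0.645). Its sign turned in the values as deposited (-0.13, or 0.07 relative to the median of all genes). There its other, dimmer row was at 0.25, or 0.45 relative to that median. Tceal7, a small regulator of transcription, rose by 0.90 (SE 0.14, adjusted p = 0.00119) and Clock, a core circadian factor, fell by 0.60 (SE 0.16, adjusted p = 0.0225), a call lost without day 2 replicate 2 (-0.60), day 2 replicate 3 (-0.44) or day 7 replicate 3 (-0.51). Neither Foxo3 (0.52) nor Clock (-0.55) passed with the animal number as covariate. In placebo the differences were 0.52 for Foxo3, -0.24 for Foxo1, 0.57 for Tceal7 and -0.55 for Clock.

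The same days were compared under placebo to ask whether the course differed by treatment. There 2914 genes (16%) passed, 1478 (8.14%) higher and 1436 (7.9%) lower on day 7. The courses share no array but share the days and any normalization by day. In the same direction 1615 genes passed in both, 59.9% of the calls under anti-miR-182 and 55.4% of those under placebo, and 1 gene passed in opposite directions. This gene was Slc9a4, a sodium-proton exchanger. It went from 7.86, 7.73 and 7.72 to 7.35, 7.14 and 7.15 under anti-miR-182 and from 7.16, 7.31 and 7.32 to 7.91, 7.52 and 7.83 under placebo. With the animal number as covariate its difference under anti-miR-182 was -0.51 and did not pass (adjusted p = 0.053), so the opposite call is lost there. Across genes, which are not independent replicates, the differences of both courses correlated with r = 0.804. For the mitotic list the median under placebo was -1.27, and 34 of 36 genes fell. Ccnb1 differed by -2.08 (SE 0.18), and the difference between the courses was 0.06 (SE 0.26).

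The difference between the courses was tested for each gene as an interaction. By limma 0 genes passed, and the smallest adjusted p was 0.413, that of Slc9a4 (-1.04, SE 0.17). An unadjusted p under 0.05 was seen for 661 genes (3.64%), where 908 would be expected if no gene differed. With the placebo day 7 replicate 3 left out 1 gene passed, the basal keratin gene Krt15, at -1.90 (adjusted p = 0.00104), named after its values were seen. It lay between 5.13 and 5.33 on all 6 anti-miR-182 arrays, and at 7.18, 7.0 and 5.39 on the placebo day 7 arrays. Krt15 also stands in the list of urothelial genes. Of that list, Upk1b lay at 7.33, 7.38 and 5.07 and Upk1a at 6.25, 6.16 and 5.13 on these placebo arrays. Upk2 was at 6.98, 6.54 and 6.38 there and Upk3a at 6.46, 6.23 and 6.07. The share of urothelium in the Krt15 values was not tested. Genes with the smallest unadjusted p included Fga, 1.58 (SE 0.31, unadjusted p = 0.00018, adjusted p = 1), and Fgb, 1.76 (SE 0.40, unadjusted p = 0.000706, adjusted p = 1). Under placebo Fga was at 9.51, 9.56 and 9.54 on day 2 and at 8.71, 9.80 and 9.57 on day 7 (-0.18, SE 0.22), and its day 2 arrays were above the anti-miR-182 arrays of that day. Fgb differed by -0.67 (SE 0.29) under placebo. Depp1, a gene induced by fasting and FOXO factors, had -1.18 (SE 0.28, unadjusted p = 0.000956), from -0.55 under anti-miR-182 and 0.63 under placebo. None of these differences passed.

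Gene lists can be set side by side in the same way, as a description without a test of the lists. Matrix genes numbered 11 rises of 31 under anti-miR-182 (median 0.43) and 19 under placebo (0.68), macrophage genes 8 of 28 (0.41) and 14 (0.65), MHC class II genes 6 of 15 (0.56) and 12 (0.84), and interferon genes 3 of 27 (0.15) and 13 (0.40). Injury genes numbered 9 rises of 30 (0.39) and 1 (0.15), and acute phase genes 8 of 19 (0.35) and 3 (-0.16). Injury means on day 2 lay at 8.77, 8.77 and 8.16 under anti-miR-182 and at 8.94, 8.94 and 9.08 under placebo. On day 7 they were 8.91, 9.05 and 9.26 against 8.74, 9.22 and 9.14, which overlap. For single members the differences between the courses did not pass: A2m rose by 2.43 and 3.11, Postn by 1.84 and 3.15, Mrc1 by 1.13 and 2.05, and Klk1c10 fell by 3.17 and 2.26, in the order anti-miR-182 and placebo. Lcn2, Il24 and C3 did not pass under placebo (0.65, 1.06 and 0.97), and their differences between courses were 1.59 (SE 0.76), 1.27 (SE 0.70) and 0.99 (SE 0.63), with adjusted p = 1 for each.

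**Figure D5:**
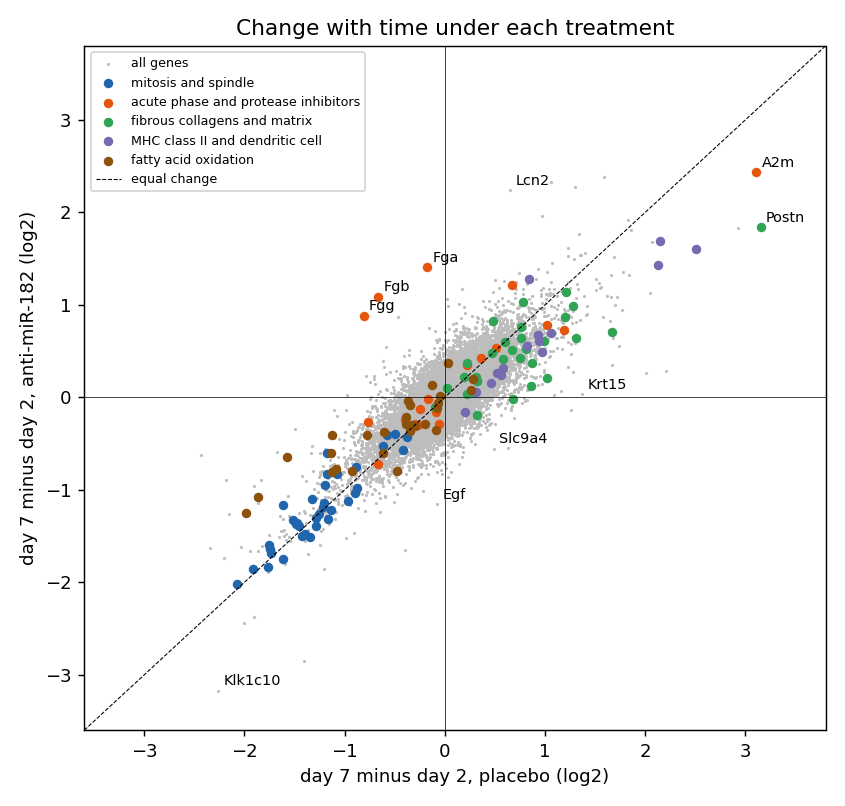
Difference between day 7 and day 2 (log2) under anti-miR-182 (vertical) against that under placebo (horizontal) for all genes (grey) and members of 5 lists (coloured); the dashed line marks equal change. Mitotic genes lie along the line at the lower left, A2m and Postn below it at the upper right, and Fga, Fgb and Fgg rise above it at the left.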

How the data were processed

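The authors deposited log2 signals, made with RMA per the submitters' processing notes, without version or settings. RMA subtracts background, normalizes and summarises probe sets. Per the labels, 200 ng of kidney RNA was amplified and labelled with biotin. The table held 36685 rows: 18511 had 1 gene symbol, 575 several and 17599 were not listed in the annotation; 18394 matched RefSeq by Entrez number and 0 were updated. Rows with 1 symbol and a value on every array gave 18166 genes, and for the 291 with several rows the one with the highest mean was used. Values ran from 1.48 to 13.4, the depth of an array has no counterpart in reads, and levels of different genes are not comparable.

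The 12 arrays were quantile normalized together. A model of 4 group means (8 residual degrees of freedom) was fitted with limma 3.58.1 and eBayes (R 4.3.3), and p-values were adjusted by the Benjamini-Hochberg method. Steps were tested on simulated data. Members and gene lists were chosen with earlier results of these data known. Named genes are the 10 largest rises and falls among genes that passed (uncharacterised loci left out), of each list the 6 members with the smallest p and the largest rise and fall, 19 fixed markers, and the 5 smallest p in each direction of the interaction; others are said to be chosen after their values were seen. Alternatives were median centring, values as deposited, the 6 arrays alone, trend, robust and weighted fits, dim genes left out (25% or 50%), the mean of a gene's rows, animal number above 90, stricter thresholds and each array left out. Those for placebo, the counts within lists and leaving out placebo arrays in the anti-miR-182 course were added after seeing the data. No array was excluded.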

Additional observations from a re-analysis of the deposited data

How the results depend on the processing

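Under anti-miR-182 the count of genes that passed, 2695, was 5002 in the values as deposited (487 higher, 4515 lower), 1636 with the 6 arrays alone (810 and 826), 1741 without the dimmest 25% of genes (840 and 901), 1094 without the dimmest 50% (544 and 550), 1424 with the animal number (698 and 726), 228 at a log2 difference of 1 (94 and 134) and 887 at an adjusted p under 0.01 (398 and 489). Leaving out 1 array gave 1615 to 2782 (736 to 1382 higher, 879 to 1424 lower). The placebo count was 5080 as deposited, 1339 without the dimmest 50%, 1724 with the animal number, 295 and 1063 at the stricter thresholds, and 1561 to 3309 with 1 array left out. The difference between the courses gave 0 to 1 genes. Of 39 list medians 25 were positive, and 8 as deposited, where the median over all genes was -0.21. The adrenal cortex list had no value without the dimmest 50%.

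Of 109 named genes that passed, 55 kept their call in each of the 22 settings that held a value for them. Of the rest, 54 lost it in at least 1, and 0 turned sign. Without the dimmest 25% and 50% of genes, 92 and 82 of the 109 had a value. In the dimmest 25% were Cd2, Clec4e, Cpa3, Cr2, Fcer1a, Il6, Il11, Il20ra, Klk1c2, Klk1c3 and Klk1c10. Mir182, Mir183, Mmp10, Mmp13, Serpina1 and Tceal7 were among them too. The animal number ended 45 of the 109 calls and leaving out day 7 replicate 3 ended 39. The fit on the 6 anti-miR-182 arrays alone ended 20. These were Car2, Clock, Dusp1, Ei24, Erbb4, Foxo3, Gsr, Hmox1, Il20ra, Irf1, Irf7, Jun, Kl, Klf4 and Mir182, with Nqo1, Polr1b, Ppara, Tgfb1 and Tgfb2. Genes that did not pass turned sign in the values as deposited (Mir96 -0.097, Cdkn1a -0.11, Slc34a1 -0.28, Adipoq -0.095, Foxo1 -0.13, Krt15 -0.14), with the animal number (Umod 0.20, Cdkn1a -0.029, Slc34a1 -0.22) and under median centring (Slc34a1 -0.094). With 1 array left out they ranged from -0.048 to 0.17 (Mir96), from -0.15 to 0.051 (Umod), from -0.015 to 0.14 (Cdkn1a), from -0.19 to 0.34 (Slc34a1), from -0.19 to 0.87 (Clu), from -0.14 to 0.10 (Col1a1), from -0.049 to 0.24 (Adipoq), from -0.02 to 0.20 (Foxo1) and from -0.016 to 0.088 (Krt15). Values as deposited still held the median difference of -0.21 over all genes. The cause of the sign changes was not tested. No paired analysis was possible because every array came from a different animal and the titles give the groups no shared replicate numbers. Arrays give no read depth, and dim rows limit what can be seen.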

Other observations

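Several further lists held few calls, to be read beside the shares over all genes (7.22% higher, 7.62% lower). Of 22 genes of heat shock and integrated stress 0 rose and 0 fell, with 0 calls also without any of the anti-miR-182 arrays. The median was 0.13, and at an unadjusted p under 0.05 2 were higher and 1 lower. Of 17 endothelial genes 0 passed (median 0.06; at an unadjusted p under 0.05 4 were higher and 1 lower), and up to 3 rose with 1 array left out. Of 25 genes of ribosome biogenesis 1 rose, Rrs1, and 1 fell, Polr1b, the latter lost without any of 5 arrays, all but day 7 replicate 2, and with the animal number as covariate (-0.45). Of 9 podocyte genes 1 rose, and of 11 urothelial genes 1 fell. Of 18 chemokine receptors 3 rose (16.7%) and 0 fell, with a median of 0.24 (0 and 0 calls with the animal number as covariate).

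Of 21 genes of the NRF2 antioxidant response, 4 fell and 0 rose. Txnrd1, thioredoxin reductase 1, went from 9.63, 9.40 and 9.30 to 8.84, 8.80 and 8.56 (-0.71, SE 0.12, adjusted p = 0.00211). Gsr, glutathione reductase, Nqo1, a quinone reductase, and Hmox1, heme oxygenase 1, differed by -0.60, -0.65 and -0.55; each lost its call without day 7 replicate 3 (-0.40, -0.50 and -0.44) and without day 2 replicate 2 (-0.62, -0.56 and -0.51). Neither Gsr (-0.69) nor Nqo1 (-0.79) passed with the animal number as covariate. Of 21 immediate early genes 3 rose, Jun, Dusp1 and Klf4 (0.48, 0.43 and 0.38), and Egr3 fell by 0.54. Klf4, Jun and Dusp1 lost their calls without most single arrays and Egr3 without day 7 replicate 3 (-0.44): between 0 and 2 rose with 1 array left out, and 0 with the animal number as covariate. Of 25 EGF and IGF genes 2 rose, Igfbp4, a binding protein of insulin-like growth factors (0.56, SE 0.10), and the receptor gene Erbb4 (0.46, SE 0.14; lost without 5 of the 6 arrays, 0.40 to 0.52), and Egf fell. Among mast cell genes 2 of 10 rose, Cpa3 (0.93, SE 0.24; lost without day 2 replicate 2 or 3 or day 7 replicate 1, 0.79 to 0.91, and with the animal number as covariate, 0.50) and Fcer1a (0.67, SE 0.10), and Tpsb2 fell by 0.54. In the red blood cell list 2 of 5 rose, and in that of the adrenal cortex 1 of 10 rose and 1 fell. Of 363 microRNA gene rows 30 rose and 23 fell.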
